A study of Mus musculus with 1 sample.

Results

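The genes for proteins of the mitochondrial ribosome were examined for the poly(A) tails of their mRNAs in wild-type (WT) mouse 24h-EpiLCs. They were chosen by name alone, as protein-coding genes of the GENCODE vM21 annotation whose symbol starts with Mrpl or Mrps and a digit. The annotation held 78 such genes, 49 named for the large subunit (Mrpl) and 29 for the small subunit (Mrps). Transcripts were found for 77 of them, and 74 had at least 10 transcripts, the number required for a gene value, out of 6754 nuclear protein-coding genes with that depth. The cells, of the ICR strain and without a mutation by their labels, were epiblast-like cells (EpiLCs) made from embryonic stem cells (ESCs) and collected at 24 h of differentiation in N2B27 medium with activin A, bFGF and KSR on Matrigel. Their tails were measured by PAIso-seq, which reads full-length cDNA together with the tail on the PacBio platform, in 1 sample that pools 2 barcoded replicates. The labels do not say which barcode is which replicate, nor whether the replicates came from separate cultures, so they are numbered by barcode and their spread may be technical. Cnot8 knockout cells were not analysed here, and with a single group no p-value was computed.

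Replicates 1 and 2 held 246316 and 455660 transcripts of nuclear genes. All 5 EpiLC markers were detected, with 1052 transcripts for Fgf5, Otx2, Dnmt3a, Dnmt3b and Pou3f1, and all 3 markers shared by pluripotent states, with 541. Naïve markers gave 556 transcripts, 501 of them from Zfp42, with Prdm14 at 0. Markers of fibroblasts, endoderm, neural cells and mesoderm gave 8 transcripts over 9 genes, with Col1a1, Col1a2, Gata4, Sox17 and T at 0.

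Mitochondria carry their own ribosomes, which translate only the few proteins encoded by mitochondrial DNA, all of them subunits of the oxidative phosphorylation (OXPHOS) complexes. All protein parts of these ribosomes are encoded in the nucleus, translated in the cytosol and imported. Some have counterparts in bacterial ribosomes and others are particular to mitochondria. A poly(A) tail protects an mRNA and aids its translation, and removal of the tail usually precedes decay. Early mouse embryos and pluripotent cells change their mitochondria and energy metabolism as they leave the naïve state.

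Single tails of the most abundant members are shown first, because they are the unit of measurement. A tail is read 5′ to 3′ from the end of the aligned transcript, and capitals mark bases other than A. The examples are those with the most passes around the circular template among tails of 20 to 30 nt that ended in T or held another non-A base.
Mrpl17, replicate 2: aaaaaaaaaaaaaaaaaaaaaaaaaT
Mrps22, replicate 1: aaaaaaaaaaaaaaaaaaaaaaaaaT
Mrpl45, replicate 2: aaaaaaaaaaaaaaaaaaaT
Mrpl45, replicate 2: aaaaaaaaaaaaCaaaaaaaaaaa
Mrps5, replicate 1: aaaaaaaaaaaaaaaCaaaaaaaaa
Mrpl42, replicate 2: TaaaaaaaaaaaaaaaaaaaaaaTT
Few short tails ended in T (26 of 308 between 16 and 30 nt). A tail close to the middle of the lengths of Mrps21, among the members with the longest tails, and one of Mrpl19, among those with the shortest, held A only.
Mrpl19, replicate 1: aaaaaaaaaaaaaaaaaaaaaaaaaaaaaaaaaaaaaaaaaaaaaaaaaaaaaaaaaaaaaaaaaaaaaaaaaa
Mrps21, replicate 2: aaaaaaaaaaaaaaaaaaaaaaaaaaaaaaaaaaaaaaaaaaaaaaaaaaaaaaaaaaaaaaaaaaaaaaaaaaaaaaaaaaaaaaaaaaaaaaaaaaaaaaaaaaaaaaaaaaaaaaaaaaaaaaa

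Transcripts were spread unevenly over the members. Together they gave 4703 transcripts, 2110 in replicate 1 and 2593 in replicate 2, or 0.857% and 0.569% of nuclear transcripts. A tested member had a median of 44.5 transcripts over both replicates, and 8 members made up 38.7% of the total. Mrpl42, a large-subunit protein particular to mitochondria (ENSMUSG00000062981, GRCm38 chr10:95480805-95501940), had 440 transcripts. Mrpl17, a large-subunit protein with a bacterial counterpart (ENSMUSG00000030879, chr7:105803206-105811099), had 417. These were followed by Mrpl45 (262), Mrpl12 (190), Mrpl15 (162), Mrpl18 (120), Mrps22 (116) and Mrps5 (114). In a bulk sample, fewer cells with a transcript and fewer copies per cell cannot be told apart.

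Tails of the members were longer than those of most genes. Each gene was given 1 value, here called its gene tail, the geometric mean length of the tails of its transcripts. The median gene tail over the 74 members was 87.4 nt and the quartiles were 77.7 nt and 96.8 nt. In the replicates, with 58 and 68 members at 10 transcripts or more, it was 86.0 nt and 87.6 nt (86.8 ± 1.18, SD, n = 2). The median over all nuclear protein-coding genes, members included, was 75.5 nt in the pooled data, and 77.1 nt and 75.8 nt in the replicates. The members therefore lay 12.0 nt higher in the pooled data, and 8.82 nt and 11.9 nt higher in the replicates (10.3 ± 2.14, SD, n = 2), a difference larger than the spread between replicates.

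The same was seen gene by gene. Of 57 members with 10 transcripts or more in each replicate, 37 (64.9%) lay above the all-gene median in both, while over all genes of that depth 34.8% did. Below the median in both replicates were 7 members (12.3%), against 32.8% of all genes. The remaining 13 lay on opposite sides in the replicates. By the 95% interval of the pooled gene tail, which covers counting error only, 29 of 74 members lay wholly above the all-gene median (39.2%, against 19.5% of all genes). A single member, Mrpl9, lay wholly below it (1.35%, against 15.6%). By the pooled value alone, 58 of 74 members lay above.

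**Figure D1:**
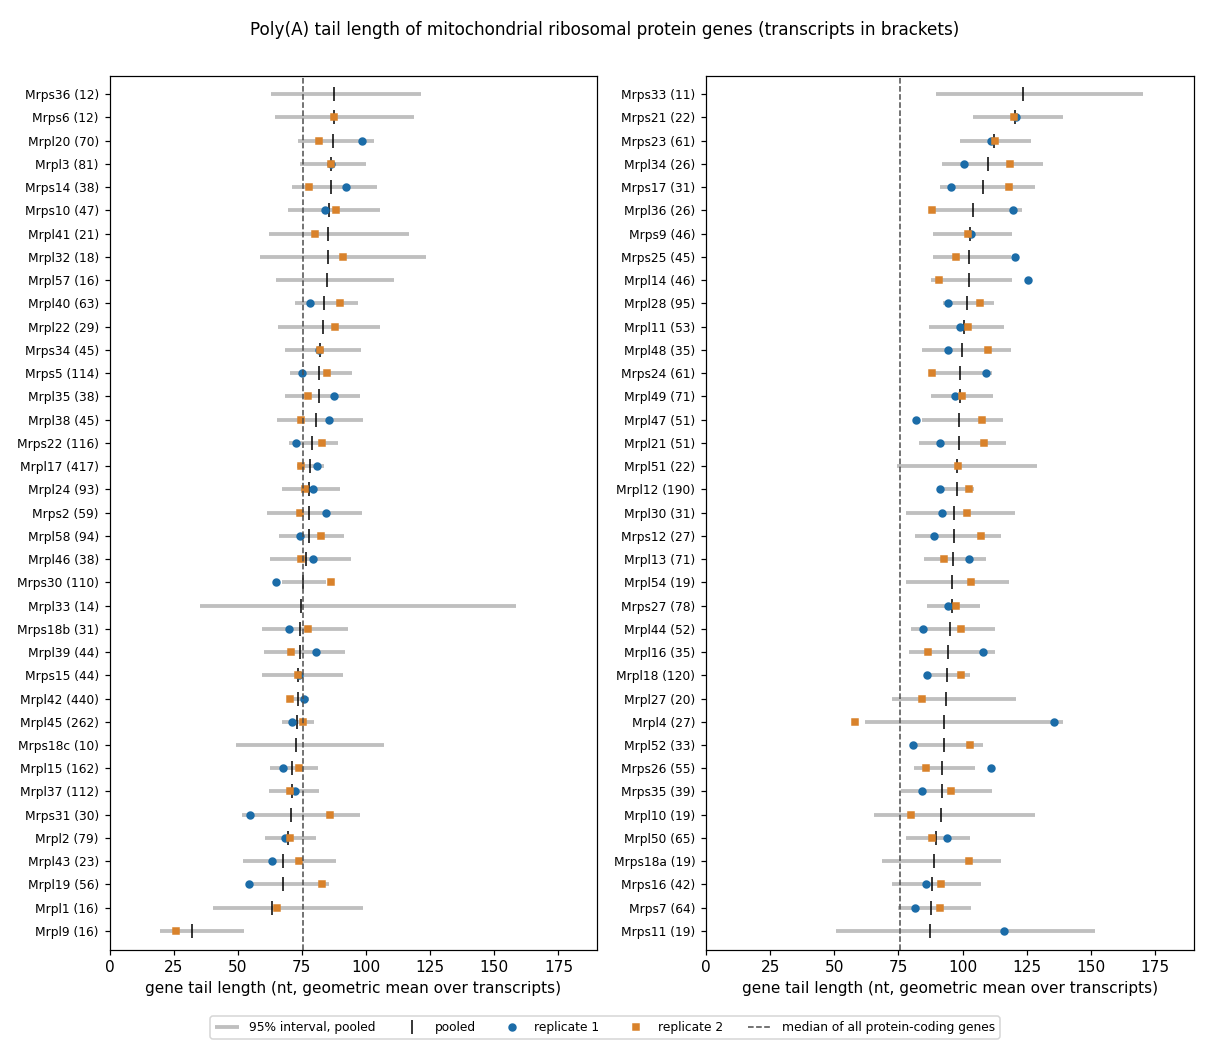
Gene tail length in nt of the 74 members with at least 10 transcripts, ordered by the pooled value (black tick), with its 95% interval (grey bar), replicate 1 (blue circles) and replicate 2 (orange squares), each drawn for 10 transcripts or more. The dashed line at 75.5 nt is the median of all protein-coding genes, and 58 of the 74 pooled values lie to its right.

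Among members with 10 transcripts in each replicate, the 8 with the longest tails came from both subunits. Mrps21, a small-subunit protein with a bacterial counterpart (ENSMUSG00000054312, chr3:95862634-95871519), had 121 nt in replicate 1 and 120.0 nt in replicate 2, from 10 and 12 transcripts. Its shortest tail had 59 nt. Mrps23, a small-subunit protein particular to mitochondria (ENSMUSG00000023723, chr11:88204388-88211507), had 111 nt and 113 nt from 22 and 39 transcripts. Mrps9, with a bacterial counterpart (ENSMUSG00000060679, chr1:42851233-42905683), had 103 nt and 102 nt. For these 3 genes the replicates lay within 2 nt of each other and far above the all-gene median.

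The other long-tailed members differed more between replicates. Mrpl34 (ENSMUSG00000034880, chr8:71464959-71465747) had 100.5 nt and 119 nt, and Mrps17 (ENSMUSG00000034211, chr5:129715497-129722556) had 95.4 nt and 118 nt. In both genes replicate 2 was the longer. Mrpl36, Mrps25 and Mrpl14 were longer in replicate 1, with 119.8, 120.2 and 125 nt, than in replicate 2, with 88.1, 97.4 and 90.9 nt. All 8 lay above the all-gene median in both replicates, and the pooled intervals of all 8 excluded it. The 8 were chosen as the longest by the pooled value, so this follows largely from the choice. Mrps33 had the highest pooled value of any tested member, 124 nt, but from 8 and 3 transcripts, with an interval of 89.6 nt to 170.4 nt.

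Of the members with 10 transcripts in each replicate, the 8 with the shortest tails were 7 large-subunit genes and Mrps31. Large-subunit genes made up 35 of the 57 members of that depth. Mrpl2, which belongs to the core of the large subunit next to the catalytic centre (ENSMUSG00000002767, chr17:46646229-46650139), had 68.4 nt and 70.4 nt from 28 and 51 transcripts. Mrpl37, particular to mitochondria (ENSMUSG00000028622, chr4:107055874-107066868), had 72.3 nt and 70.2 nt from 53 and 59. Mrpl45, which binds the large subunit to the inner membrane at the exit tunnel (ENSMUSG00000018882, chr11:97315716-97329920), had 71.0 nt and 75.5 nt from 131 transcripts each. The pooled intervals of these 3 genes, 60.4 to 80.4 nt, 62.1 to 81.6 nt and 67.2 to 79.8 nt, included the all-gene median, so they could not be placed below it.

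Mrpl42 had 75.8 nt and 70.5 nt, with a pooled interval of 69.5 nt to 77.7 nt, the narrowest among these 8 genes. Mrpl15 had 67.4 nt and 73.8 nt, and Mrpl43 had 63.3 nt and 74.0 nt. All 6 genes named so far for short tails, together with Mrps15 (74.0 nt and 73.4 nt), made up the 7 members below the all-gene median in both replicates. Mrpl19 and Mrps31 lay below it in replicate 1 only, with 54.4 nt and 54.9 nt, and had 82.6 nt and 86.0 nt in replicate 2. Their SDs, 19.96 nt and 21.95 nt, were larger than their distance from the all-gene median.

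The most abundant members spanned this range. Mrpl12, a stalk protein of the large subunit that also binds the mitochondrial RNA polymerase (ENSMUSG00000039640, chr11:120484613-120489065), had 91.1 nt and 102 nt from 73 and 117 transcripts. Mrpl18 had 86.2 nt and 99.3 nt. Both genes lay above the all-gene median in each replicate, and their pooled intervals, 91.7 to 104 nt and 85.7 to 103 nt, excluded it. Mrpl17 had 80.7 nt and 74.6 nt, Mrps22 72.5 nt and 82.9 nt, and Mrps5 74.99 nt and 84.7 nt, on opposite sides of the medians of their replicates. Across members, transcript number and gene tail had a Spearman correlation of -0.0926 over 74 genes.

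Mrpl9, with a bacterial counterpart (ENSMUSG00000028140, chr3:94443318-94451130), stood apart at 32.1 nt (interval 19.6 to 52.6 nt). Its value rested on 14 transcripts of replicate 2, with a gene tail of 26.1 nt. The 2 transcripts of replicate 1 had a gene tail of 137 nt. Without replicate 2 the gene could not be measured, and the low value therefore comes from a single replicate. Mrpl4 also differed strongly between replicates, with 136 nt and 58.0 nt from 15 and 12 transcripts. Mrpl1 had the lowest pooled value after Mrpl9, 63.3 nt from 2 and 14 transcripts, with an interval of 40.5 nt to 98.9 nt.

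By subunit, the medians of the gene tails did not differ beyond the replicate spread. The median was 86.6 nt over 46 large-subunit genes and 87.7 nt over 28 small-subunit genes. Large minus small was -1.07 nt in the pooled data, 0.638 nt in replicate 1 and -1.97 nt in replicate 2 (SD 1.85, n = 2), so even its direction differed. Above the all-gene median in both replicates were 22 of 35 large-subunit genes (62.9%) and 15 of 22 small-subunit genes (68.2%), and below it in both were 6 and 1. Mrps18a and Mrps30 are known as parts of the large subunit in the assembled ribosome, and Mrps36 as a part of the α-ketoglutarate dehydrogenase complex. With the first 2 counted as large and Mrps36 left out, the difference was -1.26 nt. Over single transcripts, the small-subunit genes had a median tail of 101 nt and the large-subunit genes 93 nt, with 99 nt against 92 nt in replicate 1 and 101 nt against 94 nt in replicate 2. The small subunit was the longer in each replicate by this measure, to which Mrpl42 and Mrpl17 contributed 857 of 3411 large-subunit transcripts.

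Members with a bacterial counterpart were compared with members particular to mitochondria. The medians were 87.9 nt over 45 genes and 85.2 nt over 29, a pooled difference of 2.64 nt. The replicates gave 10.4 nt and 1.79 nt, and the SD of 6.09 nt exceeded the pooled value. Above the all-gene median in both replicates were 25 of 34 members with a counterpart (73.5%) and 12 of 23 without (52.2%). Within the large subunit, 28 genes with a counterpart had 92.3 nt and 18 without had 84.2 nt, with replicate differences of 11.3 nt and 3.99 nt (7.64 ± 5.17, SD, n = 2) and with 76.2% and 42.9% of genes above the all-gene median in both replicates. The median of the large-subunit genes with a counterpart was thus the longer in both replicates. The SD covers the 2 replicates and not the spread between genes, whose pooled quartiles overlapped (78.0 to 98.0 nt and 74.9 to 94.4 nt). Their coding transcripts had median lengths of 1302 nt and 1461 nt, and the part that length has in this difference was not tested. Within the small subunit, 17 and 11 genes had 87.5 nt and 91.9 nt, but the replicates gave 3.02 nt and 1.77 nt with the opposite sign to the pooled -4.41 nt. The replicate values rested on fewer genes than the pooled value, 14 and 9 in replicate 1 and 15 and 9 in replicate 2. Within the small subunit the direction was therefore not settled.

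The 3 members of the Mrps18 family, which descend from a single bacterial protein, were all low in number. Mrps18a (ENSMUSG00000023967, chr17:46110986-46128910) had 89.0 nt from 19 transcripts, Mrps18b (ENSMUSG00000024436, chr17:35910379-35916389) had 74.4 nt from 31, and Mrps18c (ENSMUSG00000016833, chr5:100798627-100804471) had 72.6 nt from 10. Their intervals, 68.8 to 115 nt, 59.4 to 93.1 nt and 49.3 to 107 nt, overlapped, so the 3 genes could not be ordered.

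The other parts of the same machinery, taken as 1 set, had shorter tails. Of 50 genes for subunits without an Mrp symbol, mitochondrial translation factors, ribosome assembly factors and mitochondrial aminoacyl-tRNA synthetases, 43 had at least 10 transcripts, with a median gene tail of 78.1 nt. The members lay 9.39 nt above them in the pooled data, and 11.8 nt and 14.0 nt in the replicates (12.9 ± 1.57, SD, n = 2). The set was thin, with a median of 25 transcripts per gene and 19 genes with 10 transcripts in each replicate. Its annotated transcripts with the longest coding sequence had a median of 2400 nt, against 1404.5 nt for the members. The part that length has in this difference was not tested. In this set 6 genes (14.0%, against 19.5% of all genes) lay wholly above the all-gene median by their intervals. Wholly below it lay 4 (9.30%, against 15.6%). The translation factors had 64.6 nt over 8 genes, with 105 nt from 1 gene in replicate 1 and 42.9 nt from 6 in replicate 2. With so few genes they could not be placed. The assembly factors had 80.1 nt over 16 genes, with 71.9 nt and 81.2 nt in the replicates. The synthetases had 74.4 nt over 14 genes, with 67.7 nt and 71.3 nt. The 5 ribosome subunits without an Mrp symbol had 82.4 nt, with 88.0 nt and 84.4 nt in the replicates against 86.0 nt and 87.6 nt for the members, so that list was not shorter in both replicates.

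Of these 5 subunits, 3 lay above the all-gene median in both replicates. Aurkaip1 had 102 nt and 106 nt, Chchd1 99.7 nt and 97.2 nt, and Gadd45gip1 88.0 nt and 79.8 nt. Dap3, a GTP-binding protein of the small subunit, had 75.1 nt and 84.4 nt. Ptcd3, a small-subunit protein with RNA-binding repeats, differed from all of these, with 32.6 nt and 53.6 nt from 29 and 40 transcripts (interval 34.5 to 54.9 nt). Among the synthetases, Lars2 had a gene tail of 1.499 nt from 142 transcripts, 130 of them in replicate 2, with 3.05 nt and 1.40 nt in the replicates. Whether these Lars2 reads carry true tails was not tested.

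The members were then set beside gene groups of like function. The 70 genes for cytosolic ribosomal proteins had a median of 89.7 nt, and the members lay 2.24 nt below them. The replicates gave -6.48 nt and 1.22 nt (SD 5.45), so the members and the cytosolic ribosomal proteins could not be told apart by this measure. Nuclear-encoded OXPHOS subunits had 99.7 nt over 73 genes, and the members differed from them by -12.3 nt in the pooled data, and by -14.0 nt and -9.70 nt in the replicates (SD 3.05, n = 2). Genes of mitochondrial protein import had 82.7 nt over 30 genes, and the members lay 4.74 nt above them, with 4.63 nt and 6.25 nt in the replicates (SD 1.15). The order OXPHOS, members, import was thus the same in both replicates, whereas the place of the cytosolic ribosomal proteins was not.

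**Figure D2:**
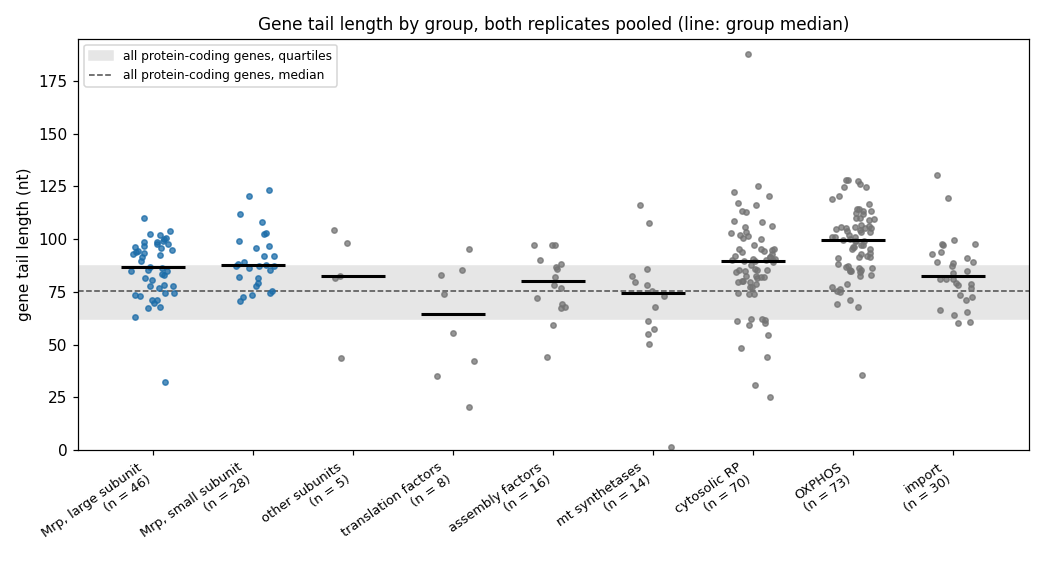
Gene tail length in nt of single genes (points) by group, both replicates pooled, with group medians (black lines), for genes with at least 10 transcripts. The dashed line and grey band give the median and quartiles of all protein-coding genes, 75.5 nt and 62.1 to 87.4 nt. The medians of both Mrp groups, 86.6 nt and 87.7 nt, lie near the upper quartile, and the OXPHOS median, 99.7 nt, lies above it.

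Transcript length moves with tail length in these data, so the members were also compared with other genes of like length. Length was that of the annotated transcript with the longest coding sequence. Its median was 1404.5 nt over tested members and 2923.5 nt over all genes. It was 861 nt over OXPHOS subunits, 910.0 nt over cytosolic ribosomal proteins and 2341.5 nt over import genes. Among transcripts of up to 1000 nt, the members had 92.6 nt (19 genes) and all genes 93.4 nt. Among those over 1000 and up to 2000 nt the values were 87.9 nt (29 genes) and 81.9 nt. Over 2000 and up to 4000 nt they were 84.7 nt (17 genes) and 74.5 nt, and over 4000 nt 91.9 nt (9 genes) and 66.7 nt. The members thus stood above all genes of like length in the 3 longer classes and not in the shortest.

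The distance from OXPHOS subunits of like length differed by class, and was smaller in both middle classes than in the shortest. Up to 1000 nt, the OXPHOS subunits had 104.6 nt (42 genes), with 107 nt and 105 nt in the replicates, above the 92.6 nt of the members. Over 1000 and up to 2000 nt they had 89.8 nt (24 genes), with 87.3 nt and 92.8 nt, against 85.1 nt and 86.3 nt for the members. In this class the OXPHOS subunits were longer in both replicates. Over 2000 and up to 4000 nt they had 85.8 nt (6 genes), with 86.9 nt and 82.9 nt, against 85.1 nt and 86.1 nt, so the direction differed between replicates. Cytosolic ribosomal proteins had 90.97 nt (44 genes) up to 1000 nt and 89.7 nt (20 genes) over 1000 and up to 2000 nt.

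In the class up to 1000 nt, the replicate medians of the members were 98.4 nt and 88.2 nt, against 97.3 nt and 94.2 nt for all genes, so the direction differed between replicates. In the class over 1000 and up to 2000 nt, they were 85.1 nt and 86.3 nt, against 82.4 nt and 82.7 nt, which is less apart than the pooled values. In the class over 4000 nt, they were 84.3 nt and 85.9 nt, against 70.7 nt and 65.4 nt. Restricted to genes with coding transcripts of up to 2000 nt, the difference between members and all genes was 6.22 nt instead of 12.0 nt. The part that length has in the difference was not tested further.

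Among the members themselves, shorter coding sequences tended to go with longer tails. Spearman's correlation of annotated coding length with gene tail was -0.417 over 74 members, and -0.386 over all 6754 genes. It was -0.474 over 58 members in replicate 1 and -0.396 over 68 in replicate 2. With the length of the whole transcript that holds this coding sequence it was weaker in the members, -0.169, against -0.363 over all genes. These correlations run across genes of the same libraries, which share depth and processing, and are given as descriptions. Mrps21 and Mrpl34, with coding lengths of 261 and 276 nt, were among the members with the longest tails, and Mrps9, with 1170 nt, was an exception.

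**Figure D3:**
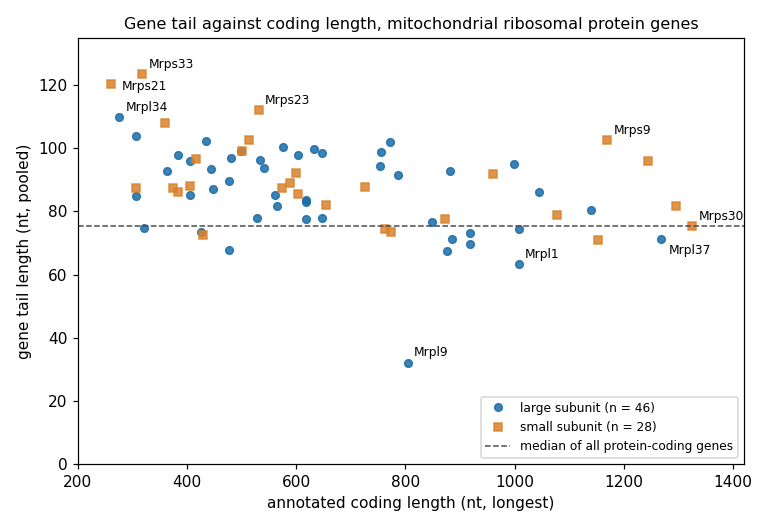
Gene tail length in nt, pooled over replicates, against annotated coding length in nt for 46 large-subunit (blue circles) and 28 small-subunit (orange squares) genes. The dashed line at 75.5 nt is the median of all protein-coding genes. Spearman's correlation is -0.417, with Mrpl9 far below the other points and Mrps9 high for its coding length of 1170 nt.

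Over single transcripts, the members held fewer very short tails than all protein-coding transcripts together. The median tail was 95 nt, with 94 nt and 96 nt in the replicates, and 91 nt over all protein-coding transcripts in each replicate. Tails of 1 to 5 nt made up 0.489% of member transcripts (23 of 4703, Wilson 95% interval 0.326% to 0.733%) and 2.002% of all protein-coding transcripts. In the replicates the shares were 0.332% and 0.617%, against 0.988% and 2.55%. Tails of 6 to 15 nt made up 0.468% (22 transcripts, 0.309% to 0.707%) and 1.56%. Few tails of 1 to 5 nt were not particular to the members. OXPHOS subunits had 0.0983% and 0.571% in the replicates, cytosolic ribosomal proteins 0.317% and 1.03%, and import genes 0.618% and 1.08%.

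Long tails were somewhat more frequent among the members. Tails over 90 nt made up 53.0% of member transcripts (51.6% to 54.5%) and 50.1% of all. By replicate the members had 52.1% and 53.8% (SD 1.21, n = 2), and all genes 50.1% in each. Tails over 150 nt made up 16.9% (15.8% to 17.98%) and 15.6%. The longest member tail had 285 nt and belonged to Mrpl24. OXPHOS subunits had 63.6% of tails over 90 nt and cytosolic ribosomal proteins 56.6%.

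**Figure D4:**
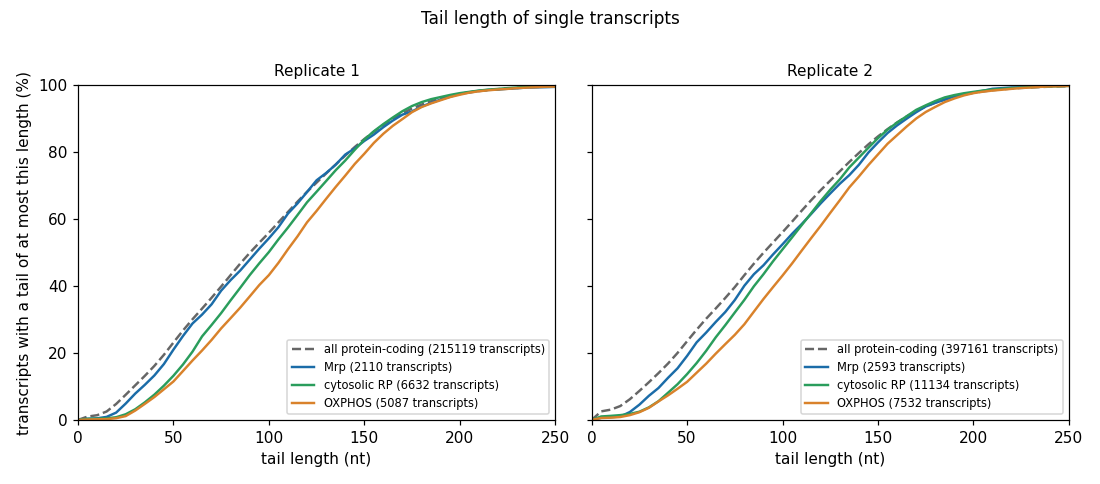
Cumulative share of transcripts (%) against tail length in nt in each replicate, for members (Mrp, blue), cytosolic ribosomal proteins (green), OXPHOS subunits (orange) and all protein-coding genes (grey, dashed). The member curve starts below the dashed curve, with 0.332% and 0.617% of tails at up to 5 nt against 0.988% and 2.55%, and meets it at longer tails, while the OXPHOS curve lies to the right of both throughout the middle range.

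The short tails touched few members but weighed on their gene values, because the geometric mean gives weight to small numbers. The 23 tails of 1 to 5 nt came from 16 members, with 4 in Mrpl15, all in replicate 2, and at most 2 in any other member. The remaining 61 detected members had none. In Mrps11, 1 of 7 tails in replicate 2 had 1 nt, and the gene had 116 nt and 53.8 nt in the replicates, or 116 nt and 105 nt without that tail. In Mrpl4, a single tail of 1 nt in replicate 2 moved that replicate from 58.0 nt to 83.9 nt when it was left out, still below the 136 nt of replicate 1. In Mrpl33, a single tail of 1 nt among 14 moved the pooled value from 74.6 nt to 104.0 nt.

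When tails under 6 nt were left out for all genes, the difference between members and all genes was 8.79 nt, and with tails under 15 nt left out it was 7.57 nt. The number of members above the all-gene median in both replicates was then 36 and 32. The share over all genes was not computed for these settings, so these counts cannot be set against it. The difference was thus smaller without very short tails, and its direction was the same.

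Bases other than A occurred in 9.44% of member tails (444 of 4703, 8.64% to 10.3%) and in 10.7% of all protein-coding tails. The replicates had 10.995% and 8.18% (SD 1.99, n = 2), against 12.4% and 9.77%, so the members were lower in each, by less than the replicates differed. T was present in 5.32% of member tails, C in 3.32% and G in 2.59%, against 6.18%, 3.28% and 2.48%. The last base was T in 2.38% (112 tails, 1.98% to 2.86%) and in 3.27% of all tails. Low shares were not particular to the members. In the replicates, OXPHOS subunits had a non-A base in 10.9% and 8.98% of tails and a last T in 2.54% and 1.59%. Cytosolic ribosomal proteins had 9.91% and 7.47%, and 2.16% and 1.19%. Import genes had 11.4% and 9.36%, and 3.09% and 2.12%. A terminal T, read from a U in the RNA, is known as a mark added to short tails on the way to decay.

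By length, T as the last base was most frequent in short tails of the members too. It was found in 26 of 308 tails of 16 to 30 nt (8.44%, 5.83% to 12.1%), with 7.48% and 9.32% in the replicates, against 13.7% of all protein-coding tails of this length. At this length OXPHOS subunits had 8.46% and 7.25%, cytosolic ribosomal proteins 5.0% and 3.49%, and import genes 13.1% and 14.0%. The low share was thus not particular to the members. In tails of 31 to 60 nt it was found in 2.47%, and in tails of 91 to 150 nt in 1.88%. Of 22 tails of 6 to 15 nt, 5 ended in T, all in replicate 1, too few for a comparison. Among single genes with 10 transcripts, Mrps25 had the highest share of tails with any non-A base, 24.4% (11 of 45), and Mrpl46 followed with 18.4%.

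Tails starting with T were most numerous in Mrpl42. The first base was T in 34 of its 440 tails, or 7.73% (5.58% to 10.6%), and in 15 of 4263 tails of all other members, or 0.352%. Shares in single other members rested on few tails, with 2 of 23 in Mrpl43 (8.70%), 4 of 79 in Mrpl2 (5.06%), 2 of 38 in Mrpl46 (5.26%) and 1 of 19 in Mrps11 (5.26%), so a high share was not found in Mrpl42 alone. The share over all protein-coding tails was 0.633%. The replicates of Mrpl42 had 10.2% (26 of 256) and 4.35% (8 of 184). All 34 tails held a further non-A base, as in the printed tail of 25 nt, against 32.6% of the 3873 tails that started with T over all protein-coding genes. The base next to the aligned end can come from the genome or from the tail, and which of these applied was not tested. Tails of Mrpl42 that started with T had a geometric mean of 79.3 nt and the others 73.0 nt.

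The share of member transcripts in the libraries differed between the replicates. Per 1000000 nuclear transcripts, the members summed to 8566 in replicate 1 and 5691 in replicate 2. By gene, 55 of 74 tested members (74.3%) had more in replicate 1, against 52.0% of all genes, with a median log2 ratio of replicate 1 over 2 of 0.38, against 0.04. Mrpl42 had 1039 and 404 per 1000000, and Mrpl17 had 974 and 388, the members with the largest numbers in each. Mrpl45 had 532 and 287, while Mrpl12 (296 and 257), Mrpl15 (256 and 217) and Mrps22 (171 and 162) differed less.

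Here too length moved with the result. Over all genes the median log2 ratio was 0.33 for coding transcripts of up to 1000 nt, 0.20 up to 2000 nt, 0.03 up to 4000 nt and -0.15 above. In the same classes the members had 0.46, 0.51, 0.10 and 0.24. OXPHOS subunits had 0.33 over 73 genes, cytosolic ribosomal proteins 0.13 over 70 and import genes 0.39 over 30, so the shift was not particular to the members. The labels give no reason for a difference between replicates, and the part of length in it was not tested.

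**Figure D5:**
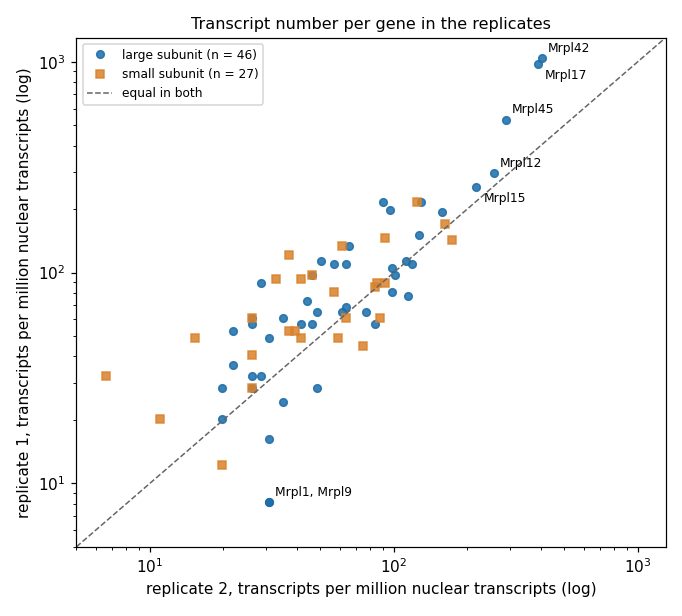
Transcripts per 1000000 nuclear transcripts in replicate 1 against replicate 2, both on log axes, for the 73 tested members found in both replicates (large subunit blue circles, small subunit orange squares). The dashed line marks equal values. Most points lie above it, among them Mrpl42 with 1039 and 404, and the points of Mrpl1 and Mrpl9, which coincide, lie below.

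The agreement of gene tails between replicates followed depth. Over 57 members with 10 transcripts in each replicate, Spearman's correlation was 0.522 and the median absolute difference 10.4 nt. Over 15 members with 30 in each, they were 0.607 and 8.14 nt. All genes of the same depths had 0.497 and 10.7 nt, and 0.670 and 6.96 nt. Replicate 2 was longer in 33 of the 57 members and replicate 1 in 24, while over all genes of this depth the numbers were 1915 and 2103.

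Some members could not be measured. Mrps28, Mrpl55 and Mrpl23 had 4, 5 and 1 transcripts, and Mrpl53 had 0, which allows up to 12.2 transcripts per 1000000 in replicate 1 and 6.58 in replicate 2. Of 790 bases in the exons of Mrpl53, 695 also belong to exons of Gm42688 on the same strand, which had 0 transcripts too, and reads in such overlaps can be left without a gene. In 8 members, Mrpl53, Mrps18c, Mrpl33, Mrps34, Mrpl3, Mrps6, Mrpl51 and Mrps24, exons overlapped another gene on the same strand. Mrps34 shared 763 exonic bases with Nme3, and its 45 transcripts (81.9 nt) are therefore uncertain. The 7 of them that were tested lay at a median of 86.2 nt, and the 67 tested members without such an overlap at 87.9 nt.

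The members lay on 17 chromosomes, with 11 of them on chromosome 11 and 8 on chromosome 17. The only pair within 10000 bases of each other was Mrpl46 and Mrps11 on chromosome 7, which run in opposite directions and overlap by 413 bases, 173 of them exonic. Mrpl46 had 79.1 nt and 74.5 nt from 18 and 20 transcripts, and Mrps11 had 116 nt and 53.8 nt from 12 and 7. The neighbours did not resemble each other in both replicates.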

How the data were processed

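PAIso-seq data of 1 WT sample with 2 barcoded replicates were used. The authors made consensus reads with ccs, split them by barcode, mapped them to mm10 with minimap2 (2.17), took the soft-clipped 3′ bases as the tail, extended it into adjoining A tracts, discarded reads without a tail and assigned genes with featureCounts (2.0.1). Versions are from the submitters' processing notes. The deposited table gives per read the barcode, gene, number of passes, base counts and sequence of the tail, without normalization. Discarding reads without a tail removes the fully deadenylated transcripts. The paper also describes a filter against tail sequences with too few A among their first bases. Its effect on the shares of very short tails, of tails starting with T and of non-A bases was not tested. Of 1013675 reads (378458 and 635217), 947620 had at least 7 passes and were used. Of 12962 gene identifiers, 12955 were found in GENCODE vM21 (GRCm38).

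Tail length was the number of A and non-A bases. Gene values were geometric means over at least 10 transcripts, compared with nuclear protein-coding genes. Gene intervals are 95% intervals of the mean log2 length, and intervals of shares are Wilson intervals. The reads carry no molecular identifiers, so both cover counting error only. The smallest share of member transcripts that 3 reads can show was 0.142% in replicate 1 and 0.116% in replicate 2. Transcripts per 1000000 were not divided by length, since each read was taken to stand for a whole molecule, which was not tested. Median log2 ratios used a pseudocount of 0.5 transcripts.

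Members and lists were chosen with earlier results of these data known. Named members were the 8 longest and 8 shortest with 10 transcripts in each replicate, the 8 most abundant, those under 10 transcripts, the Mrps18 family and members with overlapping genes or pseudogenes. Others named for an extreme value (Mrpl9, Mrpl1, Mrpl4, Mrpl33, Mrps33, Mrps15, Mrps25, Mrpl24) were chosen after their values were seen, as were the tails shown for Mrpl19 and Mrps21. Gene summaries and intervals were tested on simulated tails. Alternatives changed passes, minimum tail, summary, depth, replicates and background. The software was numpy 2.4.6, scipy 1.17.1, matplotlib 3.10.9 and pandas 2.3.3, run in Python 3.11.15.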

Additional observations from a re-analysis of the deposited data

Results flagged for a closer look

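Processed pseudogenes named after members were not used in the comparisons above but held transcripts. Mrpl23-ps1 (ENSMUSG00000075279, GRCm38 chr2:74591330-74591909) had 31 transcripts, 15 and 16 in the replicates, while Mrpl23 itself had 1. Its gene tail was 111 nt (94.4 to 131 nt), with 94.0 nt and 130.5 nt in the replicates. Mrps36-ps1 had 6 transcripts, while Mrps36 had 12. Reads can be shared between a processed pseudogene and its parent, so these values are uncertain for both. Mrps36-ps2 and Mrpl48-ps had 2 and 1 transcripts and Mrps36-ps3 had 0.

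Reads under 7 passes were also left out. They made up 5.14% of member reads (255 of 4958, 4.56% to 5.79%), above the 0.0605% that 3 reads can show, and their median tail was 91 nt, against 95 nt for the reads used.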

How the results depend on the processing

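No paired analysis was possible because the sample analysed here holds 1 group only. The SD between the replicates was the yardstick, and the reads-alone, length, subunit and 2-gene alternatives were chosen after seeing the data. The members stayed above all genes in all 13 alternatives with both replicates, from 6.22 nt to 13.8 nt. The difference moved to 8.79 nt with tails of at least 6 nt, 7.57 nt with at least 15 nt, 9.81 nt when arithmetic means were taken and 6.22 nt with coding transcripts of up to 2000 nt. Leaving out a replicate gave 8.82 nt to 11.9 nt. The median gene tail moved to 89.3 nt, 90.2 nt, 103 nt and 101.8 nt with tails of at least 6 nt, of at least 15 nt, the arithmetic mean and the median, and single replicates gave 86.0 nt to 87.6 nt. The count above the all-gene median in both replicates ran from 31 to 38, without the share over all genes, which was not computed for the alternatives.

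Large minus small kept its sign in only 4 of 12 alternatives. It was -5.58 nt with at least 15 passes, 1.96 nt with tails of at least 6 nt, 1.48 nt with the arithmetic mean, 1.65 nt with at least 20 transcripts, 1.65 nt with 10 in each replicate and 4.12 nt with reads alone in their sequencing well, and single replicates gave -1.97 nt to 0.638 nt. It was also positive with no pass filter (0.370 nt), tails of at least 15 nt (0.693 nt) and the median (0.25 nt). Conserved minus mitochondria-specific was 9.59 nt with at least 20 transcripts and 11.5 nt with 10 in each replicate, against 2.64 nt, and 1.79 nt to 10.4 nt in single replicates. The difference from cytosolic ribosomal proteins ran from -5.57 nt to 2.60 nt, and from -6.48 nt to 1.22 nt in single replicates. The median over transcripts was 98 nt without Mrpl17 and Mrpl42, and 94 nt to 96 nt in single replicates. The share with a non-A base was 6.61% without the first and last base, and 8.18% to 10.995% in single replicates. Member transcripts per 1000000 stayed within the replicate SD in 6 of 6 alternatives, with 5691 to 8566 in single replicates. The cause of these moves was not tested. Depth limits single genes most, since 44.5 transcripts was the median per member.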
